A study of Homo sapiens with 24 samples.

Results

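A set of 10 keratin genes was followed in MCF-10A mammary epithelial cells, namely KRT10, KRT1, KRT16, KRT6A, KRT6B, KRT6C, KRT80, KRT4, KRT13 and KRT78. They are the rows of the gene count table whose Ensembl identifiers map to these symbols, 10 of 60668 rows, and all 10 passed the filter on low counts that left 22158 genes for testing. The members were chosen by the measured levels of KRT10 in these libraries, to which keratins of related function were added, so KRT10 is described here without a test. Earlier results also named KRT10 or KRT16 in some contrasts, and there every member is described without a test, namely in the contrasts of MYC-ER cells after 48 h with 0 h, of parental cells after 24 and 48 h with 0 h, and in the line by time interactions after 24 and 48 h. Other contrasts share libraries with these. The tests of KRT16 there, and its place in the counts of members called, are therefore not independent of how the list was drawn up.

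MCF-10A is an immortalised, non-tumorigenic human mammary epithelial line, and MCF-10A MYC-ER carries in addition a MYC protein joined to an oestrogen receptor domain, which stays inactive until 4-hydroxytamoxifen (4-OHT) binds it. Both lines were grown in 3D on growth factor-reduced Matrigel, and 1 µM 4-OHT was present for the last 8, 24 or 48 h, or not at all (0 h), before all cultures were collected together on day 5. Each of the 8 line by time groups has 3 libraries, 24 in all, of poly(A)-selected RNA, with 136860029 to 182438505 counts per library. The parental line lacks the fusion, so its time course shows 4-OHT, with whatever went with its addition, in the absence of the fusion. The labels speak of seeding in triplicate and do not say that replicates came from separate cultures or experiments, so p-values measure the spread between these libraries, which may be technical. They also do not say whether either line is a single clone.

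Keratins form the intermediate filaments of epithelia as obligate pairs of an acidic type I and a basic type II chain. KRT5 and KRT14 are the pair of basal cells, KRT1 and KRT10 that of the suprabasal epidermis, KRT4 and KRT13 that of internal stratified epithelia, and KRT6 and KRT16 the pair induced in wounded or hyperproliferative epidermis. KRT78 and KRT80 are type II chains without so well known a partner. The type II members lie together on chromosome 12 and the type I members on chromosome 17, all on the minus strand (GRCh38, GENCODE v29). KRT1 occupies chr12:52674736-52680407 and KRT10 chr17:40818117-40822595. KRT16 occupies chr17:41609778-41615899, KRT6A chr12:52487174-52493257, KRT6B chr12:52446651-52452126 and KRT6C chr12:52468516-52473785.

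KRT10 has the widest range of levels of the well expressed members, and the 250 bases before its start in RefSeq (GRCh38.p14, chr17:40822615-40822864, minus strand) are shown for that reason. Capitals mark TATAAA, whose match begins 29 bases before the start, and CANNTG, the general E-box, which MYC and many other basic helix-loop-helix factors can bind.
KRT10: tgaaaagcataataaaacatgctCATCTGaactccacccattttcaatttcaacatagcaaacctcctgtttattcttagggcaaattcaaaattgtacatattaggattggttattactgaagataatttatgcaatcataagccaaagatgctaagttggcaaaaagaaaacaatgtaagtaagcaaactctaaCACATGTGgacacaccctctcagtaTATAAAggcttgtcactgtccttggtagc
On both strands the stretch holds 1 match to TATAAA, which 10.7% of 35116 promoter windows of this length contain, and 3 matches to CANNTG (61.8% of windows), of which the last 2 overlap. It has no match to CACGTG, the E-box that MYC prefers (6.34% of windows), to the AP-1 motif TGANTCA (6.57%) or to the AP-2 motif GCCNNNGGC (19.8%). A match is a description of the letters and not of binding.

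The 3 KRT6 genes are close copies, which bears on how reads were divided among them. Their coding sequences, each 1692 bases, are identical at 97.52% of positions for KRT6A and KRT6B, 97.93% for KRT6A and KRT6C and 98.52% for KRT6B and KRT6C. The 60-base window from position 663 to 722 of the coding sequence (GENCODE v29) is the 60-base window in which the copies differ most. It has 9 such positions, given in capitals, and so is less alike than the coding sequence as a whole.
KRT6A: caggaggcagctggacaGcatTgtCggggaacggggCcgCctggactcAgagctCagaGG
KRT6B: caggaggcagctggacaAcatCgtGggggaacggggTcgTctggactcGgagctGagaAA
KRT6C: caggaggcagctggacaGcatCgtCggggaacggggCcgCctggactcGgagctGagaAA
Of all 50-base stretches of the longest coding transcript, 39.1% of those of KRT6A, 47.1% of KRT6B and 53.6% of KRT6C also occur in another gene. For KRT16 the share was 22%, and 13% of its stretches occur in the pseudogene KRT16P3. For stretches of 150 bases, the length of a read, the shares were 9.25% for KRT6A, 12.8% for KRT6B, 16.5% for KRT6C and 0.736% for KRT16. KRT1, KRT4 and KRT78 shared none at either length. The treatment of reads with more than 1 matching gene is not given in the sources used here. The separate levels of KRT6A, KRT6B, KRT6C and KRT16 are therefore uncertain to an extent that was not measured.

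KRT10, the type I suprabasal keratin, was the most abundant member in untreated MYC-ER cells. At 0 h the MYC-ER libraries held 5722, 6316 and 5811 CPM (counts set to 1 depth for all libraries with edgeR's TMM factors). At 8 h they held 1100, 951 and 1097 CPM, after 24 h 75, 80.4 and 97.6, and after 48 h 101, 96.7 and 106. All 3 libraries of each group lay below those of the earlier time until 24 h, and the ranges after 24 and 48 h overlapped. Fitted folds below 0 h were 5.67 after 8 h, 70.5 after 24 h and 58.8 after 48 h.

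Parental cells held less KRT10 at 0 h than MYC-ER cells, and their later levels also lay below their own 0 h level. Parental KRT10 levels were 563, 533 and 523 CPM at 0 h, 391, 315 and 311 after 8 h, 134, 136 and 133 after 24 h, and 219, 183 and 188 after 48 h. The fitted KRT10 level was 1.59-fold lower after 8 h, 4.02-fold lower after 24 h and 2.74-fold lower after 48 h than at 0 h, with no overlap between any of the 4 parental groups. MYC-ER cells at 0 h stood 11-fold above parental cells at 0 h. At 24 and 48 h the order was the opposite, with MYC-ER cells 1.59-fold and 1.94-fold below parental cells of the same time. From high to low the 8 groups ran MYC-ER 0 h, MYC-ER 8 h, parental 0, 8, 48 and 24 h, MYC-ER 48 h and MYC-ER 24 h, and the last pair is the one pair of neighbours whose ranges overlap. In bulk RNA, fewer cells making a keratin and less of its RNA per cell cannot be told apart.

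**Figure D1:**
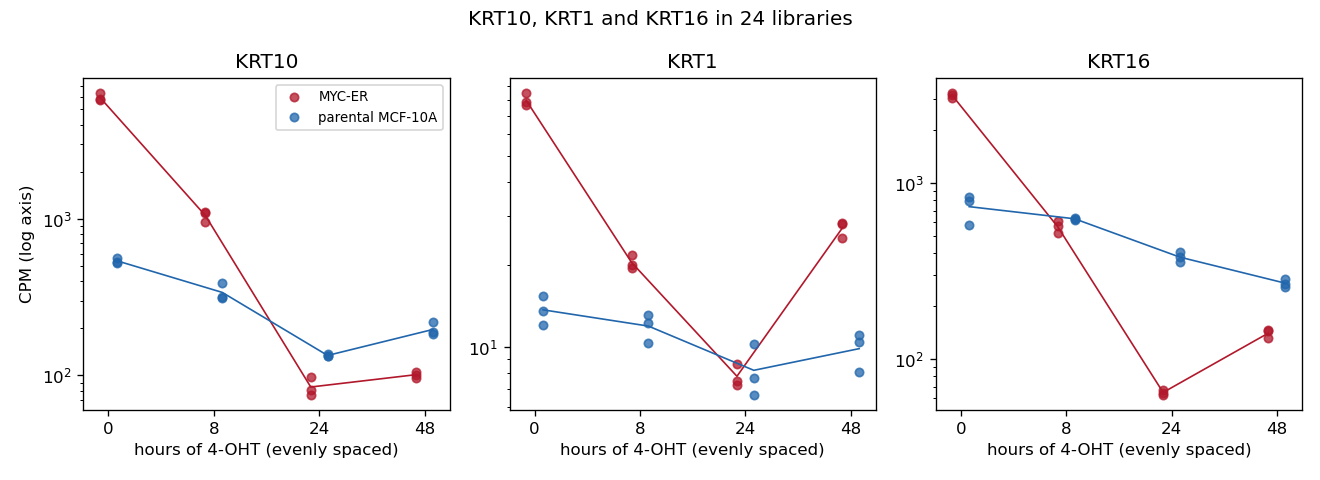
Levels of KRT10, KRT1 and KRT16 in CPM (log axis) against hours of 4-OHT, evenly spaced, with 1 point per library and lines through the means of 3 libraries, red for MYC-ER and blue for parental cells. In MYC-ER cells all 3 genes are lowest after 24 h, and KRT1 and KRT16 but not KRT10 have 48 h libraries that all lie above the 24 h ones.

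KRT1, the type II partner of KRT10, fell with it in MYC-ER cells at a far lower level. MYC-ER libraries held 78.5, 76.6 and 84.7 CPM at 0 h, 20, 19.4 and 21.7 after 8 h, 7.22, 7.46 and 8.67 after 24 h, and 28.5, 25.0 and 28.2 after 48 h. KRT1 fell 3.93-fold by 8 h (log2 difference -1.97, SE 0.14, edgeR adjusted p = 2.68e-11) and a further 2.61-fold from 8 to 24 h (adjusted p = 1.72e-08). It then rose 3.50-fold from 24 to 48 h (log2 difference 1.81, SE 0.14, adjusted p = 3.2e-10), with no overlap of libraries at any of these steps. Parental libraries spanned 6.65 to 15.3 CPM over all 4 times, and the log2 difference after 8 h was -0.20 (SE 0.13, adjusted p = 0.296). Between the lines KRT1 was 5.86-fold higher in MYC-ER cells at 0 h (log2 difference 2.55, SE 0.14, adjusted p = 6.87e-13), 1.71-fold higher after 8 h (adjusted p = 5.85e-05) and 2.77-fold higher after 48 h (adjusted p = 7.1e-09). After 24 h the libraries of the lines overlapped (log2 difference -0.07, SE 0.14, adjusted p = 0.704).

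The pair was far from equal in amount. Per kilobase of transcript, KRT10 exceeded KRT1 by a ratio of 86.1 ± 8.21 (SD, n = 3) in the MYC-ER line at 0 h, 59.5 ± 3.58 after 8 h, 12.5 ± 0.505 after 24 h and 4.30 ± 0.186 after 48 h. In parental cells the ratio of KRT10 to KRT1 lay between 15.3 and 50.2 in the 12 libraries. The MYC-ER 48 h libraries thus had the lowest ratios of the 24.

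The RNA KRT10-AS1 (listed as TMEM99 in GENCODE v29) lies on the opposite strand and overlaps 3490 bases of KRT10. The library kit keeps strand, but whether the counting used it is not given in the sources used here. KRT10-AS1 stood at 66.2 ± 2.24 CPM in MYC-ER cells at 0 h, 17.4 ± 0.206 after 8 h, 17.0 ± 1.20 after 24 h and 28.0 ± 1.44 after 48 h. Its level in parental groups was 15.5 to 21.3 CPM on average. It fell by 1.93 on the log2 scale in MYC-ER cells by 8 h (SE 0.082, adjusted p = 5.24e-15), and did not pass the test from 8 to 24 h (log2 difference -0.03, SE 0.08, adjusted p = 0.758), the step over which KRT10 was 12.4-fold lower.

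KRT16, the type I stress keratin, fell in MYC-ER cells to 24 h, as KRT1 did. MYC-ER libraries held 3162, 3243 and 3062 CPM at 0 h, 569, 520 and 610 after 8 h, 64.7, 62.6 and 67.0 after 24 h, and 146, 132 and 145 after 48 h. KRT16 fell 5.57-fold by 8 h (log2 difference -2.48, SE 0.099, adjusted p = 2.05e-15) and 48.7-fold by 24 h (log2 difference -5.61, SE 0.11, adjusted p = 2.34e-20). The 24 h difference is part of the 24 h interaction, in which earlier results named KRT10 or KRT16, so its p-value is no independent support. KRT16 rose 2.18-fold from 24 to 48 h (log2 difference 1.12, SE 0.096, adjusted p = 1.65e-09). No libraries overlapped across these steps.

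In parental cells KRT16 libraries held 839, 580 and 793 CPM at 0 h, 629, 621 and 637 after 8 h, 381, 356 and 405 after 24 h, and 257, 288 and 268 after 48 h. Parental replicate 2 at 0 h lay below all 3 libraries after 8 h, and the log2 difference after 8 h was -0.23 (SE 0.094, adjusted p = 0.0703). The KRT16 difference was called without that replicate (-0.38, adjusted p = 0.000111) and with upper quartile scaling (-0.27, adjusted p = 0.0398), and was 0.0218 with the GC trend removed (adjusted p = 0.847). The 24 h and 48 h levels were 1.94-fold and 2.72-fold below 0 h. At 0 h KRT16 was 4.28-fold higher in MYC-ER than in the parental line (log2 difference 2.1, SE 0.098, adjusted p = 3.82e-14), and after 24 h it was 5.87-fold lower (log2 difference -2.55, adjusted p = 7.63e-15). The pseudogene KRT16P3, with which KRT16 shares sequence, went from 25.1 ± 4.62 CPM in MYC-ER cells at 0 h to 0.948 ± 0.178 after 24 h and was at most 29.9 CPM in any library.

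KRT6A, the most abundant of the type II stress keratins, rose in MYC-ER cells after 8 h and fell back by 24 h. MYC-ER libraries held 2725, 2779 and 2750 CPM at 0 h, 8502, 8230 and 8971 after 8 h, 2580, 2472 and 2481 after 24 h, and 1631, 1575 and 1579 after 48 h. KRT6A rose 3.11-fold by 8 h (log2 difference 1.64, SE 0.074, adjusted p = 1.79e-14), fell 3.41-fold from 8 to 24 h (log2 difference -1.77, adjusted p = 1.22e-14) and fell 1.57-fold more by 48 h (log2 difference -0.65, adjusted p = 1.03e-07). Against 0 h the 24 h level did not pass the test (log2 difference -0.13, SE 0.073, adjusted p = 0.123), although its libraries all lay below those at 0 h.

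Parental KRT6A was high throughout, at 8465, 8199 and 9046 CPM at 0 h, 9472, 9617 and 9704 after 8 h, 8798, 8018 and 9275 after 24 h, and 5526, 6580 and 7037 after 48 h. MYC-ER cells at 0 h therefore held 3.11-fold less KRT6A than parental cells (log2 difference -1.64, SE 0.074, adjusted p = 2.47e-14). At 8 h the gap did not pass the test (log2 difference -0.16, SE 0.073, adjusted p = 0.0685), though it did in 7 of the alternatives, such as library size alone (-0.25), and it was 3.46-fold after 24 h and 4.00-fold after 48 h (adjusted p = 2.17e-14 and 3.18e-15).

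KRT6B and KRT6C, the near copies, moved with KRT6A at lower levels. KRT6B averaged 90.6 ± 4.47 CPM in MYC-ER cells at 0 h, 263 ± 22.3 after 8 h, 74.9 ± 3.14 after 24 h and 65.5 ± 2.28 after 48 h, and rose 2.90-fold by 8 h (log2 difference 1.54, SE 0.092, adjusted p = 2.13e-12). KRT6C averaged 161 ± 5.13, 335 ± 30.1, 119 ± 5.60 and 89.9 ± 1.08 CPM at the same times and rose 2.08-fold by 8 h (log2 difference 1.06, SE 0.075, adjusted p = 3.56e-11). From 8 to 24 h KRT6B fell 3.51-fold and KRT6C 2.81-fold. In parental cells KRT6B averaged 285 to 560 CPM and KRT6C 277 to 462 CPM, lowest after 48 h for both, and neither passed the test after 8 h, though KRT6B did with the GC trend removed (log2 difference 0.19, adjusted p = 0.0448). At 0 h KRT6B was 6.06-fold and KRT6C 2.87-fold lower in MYC-ER than in the parental line (adjusted p = 6.28e-16 and 1.16e-13). Per kilobase, KRT6A made up 88.5 to 93.8% of the summed KRT6 level in every one of the 24 libraries.

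**Figure D2:**
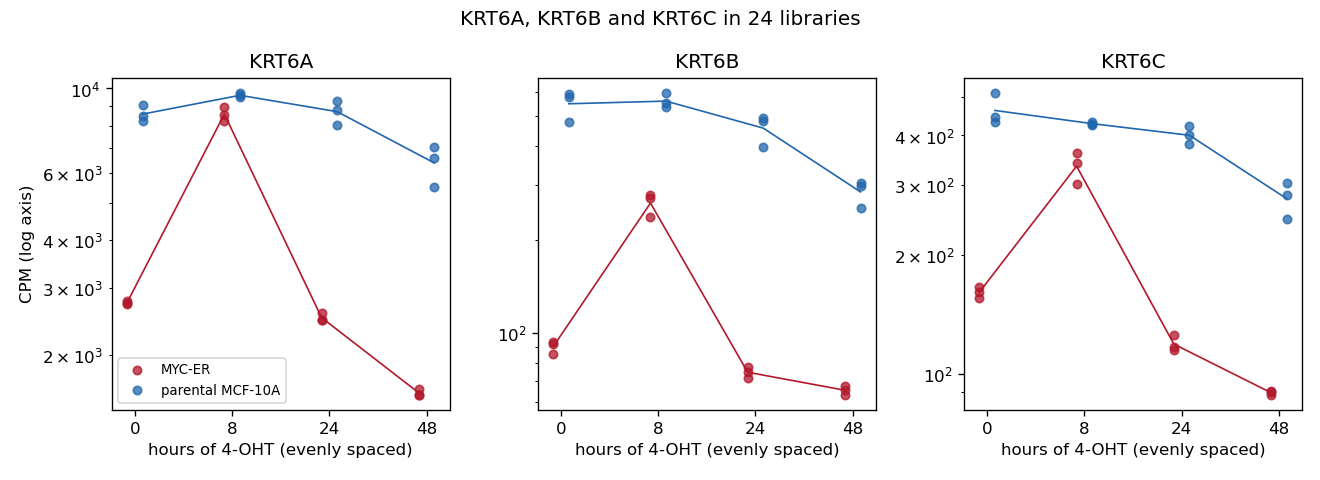
Levels of KRT6A, KRT6B and KRT6C in CPM (log axis) against hours of 4-OHT, evenly spaced, with 1 point per library and lines through the means of 3 libraries. In all 3 panels the MYC-ER libraries (red) are highest after 8 h, while the parental libraries (blue) are lowest after 48 h.

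KRT16 and KRT6 thus went opposite ways after 8 h in MYC-ER cells, and the balance of the pair differed between the lines. Per kilobase, KRT16 stood to summed KRT6 in a ratio of 1.48 ± 0.0397 (SD, n = 3) in the MYC-ER line at 0 h, 0.0867 ± 0.00302 after 8 h, 0.0336 ± 0.00137 after 24 h and 0.113 ± 0.00506 after 48 h. In the parental groups the ratio averaged 0.108 ± 0.0171 at 0 h, 0.0834 ± 0.00113 after 8 h, 0.0559 ± 0.000829 after 24 h and 0.0551 ± 0.00531 after 48 h. MYC-ER at 0 h was the one group with more KRT16 than KRT6.

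The difference between the lines in their response after 8 h was itself tested as an interaction, the MYC-ER log2 difference minus the parental one. It was -2.25 (SE 0.13, adjusted p = 5.36e-12) for KRT16 and -1.78 (SE 0.19, adjusted p = 5.89e-08) for KRT1. For KRT6A it was 1.48 (SE 0.10, adjusted p = 6.84e-11), for KRT6B 1.51 (SE 0.13, adjusted p = 1.59e-09) and for KRT6C 1.17 (SE 0.10, adjusted p = 3.84e-09). These 5 of the 9 members tested passed, beside 55.2% of all genes tested. The interaction was positive for 3 of them, beside 27.3% of all genes, and negative for 2, beside 27.8%.

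KRT80, a type II keratin of low level here, rose late in MYC-ER cells. MYC-ER libraries held 1.13, 1.17 and 1.08 CPM at 0 h, 0.709, 1.13 and 1.33 after 8 h, 2.33, 2.1 and 2.36 after 24 h, and 2.73, 2.1 and 2.73 after 48 h. The 24 h libraries lay above all those at 0 and 8 h, a 2.01-fold rise over 0 h (log2 difference 1.01, SE 0.22, adjusted p = 0.000357). Parental libraries held 1.80 to 3.52 CPM over the 4 times, and KRT80 was 2.20-fold lower in MYC-ER than in the parental line at 0 h (adjusted p = 8.95e-05) and 2.53-fold lower after 8 h (adjusted p = 2.65e-05). The tests after 24 and 48 h were not passed (log2 differences -0.43 and 0.14, adjusted p = 0.103 and 0.601). LINC00592 on the opposite strand spans the whole of KRT80 and had at most 24 counts in any library, against 98 to 565 for KRT80.

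**Figure D3:**
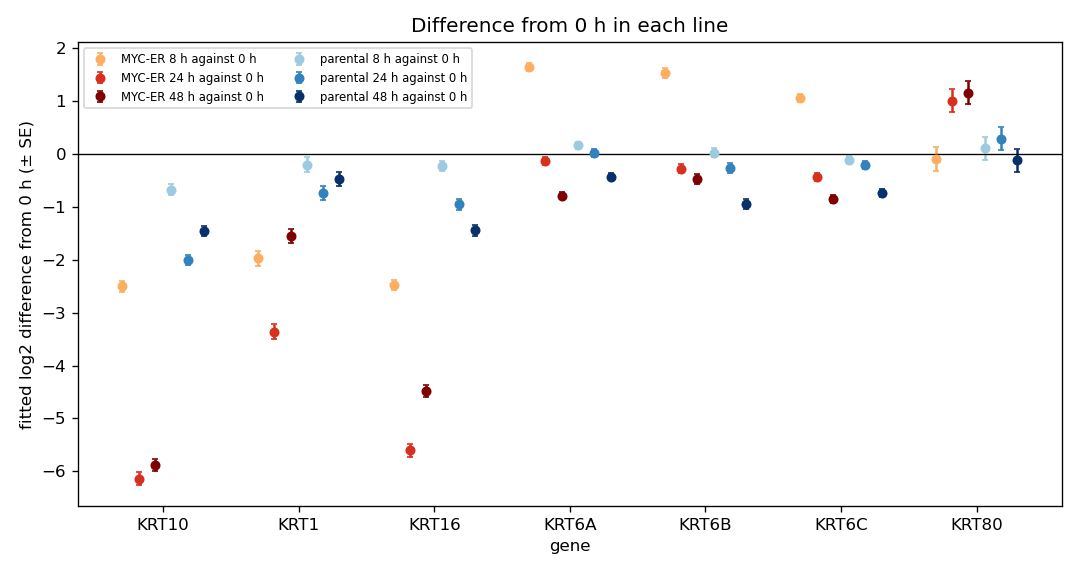
Fitted log2 difference from 0 h (points, with bars of 1 SE) for 7 members in MYC-ER cells (orange to dark red for 8, 24 and 48 h) and parental cells (light to dark blue). KRT10, KRT1 and KRT16 lie below 0 in MYC-ER cells at every time, whereas the 3 KRT6 genes lie above 0 after 8 h and below it afterwards.

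KRT4, KRT78 and KRT13 were low and varied widely between replicates. KRT4 spanned 0 to 12.9 CPM, and replicate 2 was the lowest of its group in 7 of the 8 groups, for example 7.61, 0.926 and 6.66 CPM in parental cells at 0 h. The ratio of the highest to the lowest replicate of KRT4 had a median of 2.99 over the 7 groups without a 0, beside 1.07 for KRT6A and 1.13 for KRT10 over all 8 groups. KRT4 passed none of the 10 tests made. Replicate 2 was also the lowest of its group in 6 of the 8 groups for KRT16, KRT6C and KRT78, and in 5 for KRT1, KRT6A, KRT6B and KRT80.

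KRT78 had values either at or above 2.02 CPM, in 10 libraries, or at or below 0.899 CPM, in 14. Both kinds occurred within 4 of the groups, such as 4.44, 0.145 and 4.54 CPM in MYC-ER cells after 24 h and 4.94, 0.450 and 5.04 CPM in parental cells after 8 h. MYC-ER cells after 8 h, with 4.01, 4.81 and 2.02 CPM, lay above 0 h, with 0.899, 0.629 and 0.631, and the rise of 2.33 on the log2 scale (SE 0.98) had an adjusted p = 0.0420 that was lost in 9 of the alternative fits, among them those without any 1 of the 3 MYC-ER 0 h libraries or without MYC-ER 8 h replicate 1 or 2. KRT78 was also called higher in MYC-ER than in the parental line after 24 h (log2 difference 2.60, SE 1.01, adjusted p = 0.0370), although replicate 2 lay below all 3 parental libraries, and without any 1 of 5 of the 6 libraries the call was lost. It was also lost with no filter on low counts (adjusted p = 0.0649). KRT79, a neighbouring type II keratin named after its values were seen, was on the same side of 2 CPM as KRT78 in 21 of 24 libraries. Whether part of the KRT78 signal depends on how transcripts were assembled or counted was not tested.

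KRT13 was low throughout, and most parental libraries held no counts. MYC-ER libraries had 163, 98 and 54 counts at 0 h, 48, 45 and 83 after 8 h, 66, 0 and 85 after 24 h, and 23, 322 and 220 after 48 h. Parental libraries had 0, 81 and 131 counts at 0 h, no counts in the 6 libraries at 8 and 24 h, and 0, 0 and 50 after 48 h. A count of 0 allows up to 0.0219 CPM in the smallest library, on its unscaled total and for counting error only. The call of a lower KRT13 level in parental cells after 8 h (adjusted p = 0.0261) and of higher levels in MYC-ER than parental cells after 8 h (adjusted p = 0.0168) and 24 h (adjusted p = 0.0236) rest on groups at 0, for which a fitted fold is not a measured size. The first was lost without parental 0 h replicate 3 or any 1 parental 8 h library, and the last without MYC-ER 24 h replicate 3 or any 1 parental 24 h library. AC019349.1 overlaps KRT13 by 1427 bases on the opposite strand.

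**Figure D4:**
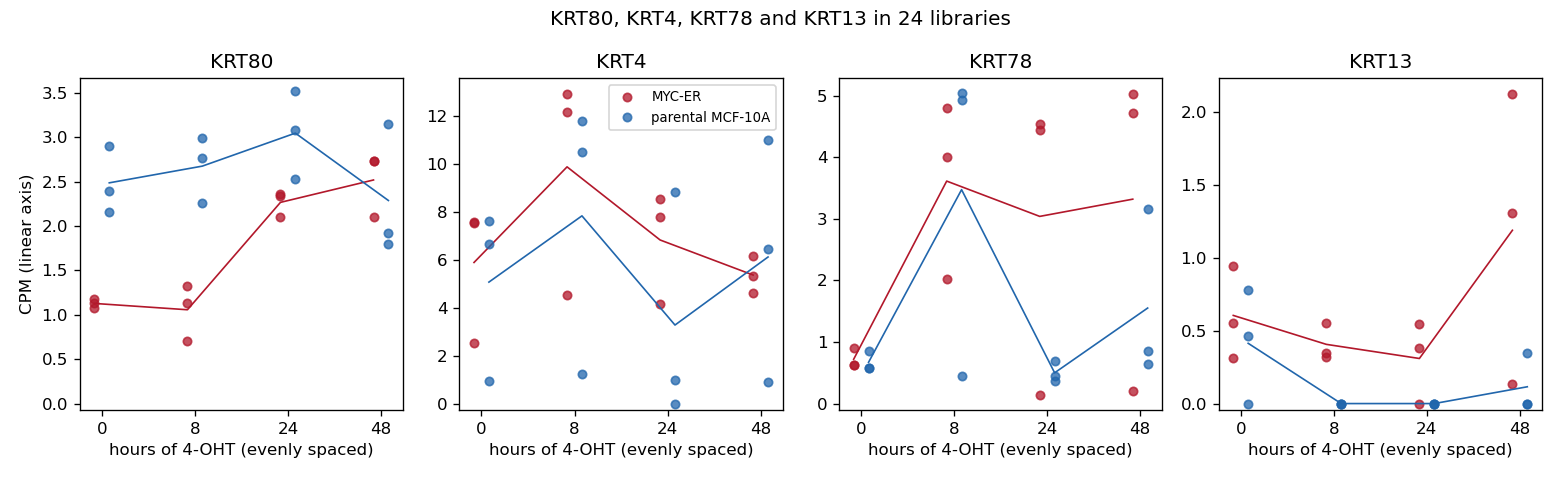
Levels of KRT80, KRT4, KRT78 and KRT13 in CPM (linear axes that differ between panels) against hours of 4-OHT, evenly spaced, with 1 point per library and lines through the means of 3. KRT80 replicates of a group differ by up to 1.87-fold (median 1.33). KRT4 and KRT78 have replicates near 0 beside others several CPM higher, and KRT13 stays at or below 2.13 CPM.

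Counted over the 9 members other than KRT10, 6 were called after 8 h against 0 h in MYC-ER cells, beside 67.6% of all 22158 genes. Of these 4 were higher (KRT6A, KRT6B, KRT6C and KRT78), beside 32.2% of all genes, and 2 lower (KRT1 and KRT16), beside 35.4%. After 24 h 5 differed from 0 h (61.6% of all genes), KRT80 being higher (30.4%) and KRT1, KRT16, KRT6B and KRT6C lower (31.2%). KRT6B in that contrast (log2 difference -0.28, SE 0.091, adjusted p = 0.0119) was not called with library size as the sole scaling or without MYC-ER 24 h replicate 2. Between 8 and 24 h 6 were called (55.5%), with KRT80 higher (28.4%) and 5 lower (27.1%). Between 24 and 48 h 4 were called (53.7%), with KRT1 and KRT16 higher (28.2%) and KRT6A and KRT6C lower (25.5%).

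In parental cells after 8 h KRT13 alone was called, beside 31% of all genes in either direction, 15% higher and 16% lower. The count ran from 0 to 3 in the alternatives, KRT6A being called with the GC trend removed (log2 difference 0.30). Between the lines 6 members were called at 0 h (64.3% of all genes), with KRT1 and KRT16 higher in MYC-ER cells (31.6%) and 4 lower (32.7%). After 8 h 5 were called (48.6%), of which 2 were higher (KRT1 and KRT13, beside 23.1%) and 3 lower (25.5%). After 24 h 6 were called (49.4%), of which 2 were higher (KRT13 and KRT78, beside 23.5%) and 4 lower (25.8%). The libraries of the lines overlapped for KRT13 and KRT78 after 24 h, and both calls were lost in some alternatives. After 48 h 5 were called (56.7%), KRT1 being higher (27.3%) and 4 lower (29.4%). The contrasts with 0 h in one line share their 0 h libraries.

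The keratin composition sets these levels against all other keratins. Over 54 keratin genes and per kilobase, the 10 members made up 50.7% ± 0.495 (SD, n = 3) of the keratin signal in MYC-ER cells at 0 h, 42.5% ± 0.214 after 8 h, 21.2% ± 0.236 after 24 h and 15.7% ± 0.308 after 48 h, and 25.6 to 31.0% on average in the parental groups. Of the type I signal KRT10 held 50.8% ± 0.895 and KRT16 34.9% ± 0.812 in MYC-ER cells at 0 h, where the basal keratin KRT14 held 6.84% ± 0.347. At 24 h KRT10 held 2.40% ± 0.293 and KRT14 59.5% ± 0.160. At 48 h KRT17, another keratin of injured skin, held 36.7% ± 0.307. In parental cells KRT14 held 61.5 to 72.2% on average and KRT10 at most 3.95% in any library. Of the type II signal the basal KRT5 held 76.8% ± 0.333 and KRT6A 18.5% ± 0.105 in MYC-ER cells at 0 h, and 48.0% ± 0.288 and 45.2% ± 0.352 after 8 h. KRT1 never exceeded 0.539%. A share falls when other keratins rise, and the type I sum itself went from 5507 ± 198 to 1653 ± 38.1 CPM per kilobase between 0 and 24 h in MYC-ER cells.

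**Figure D5:**
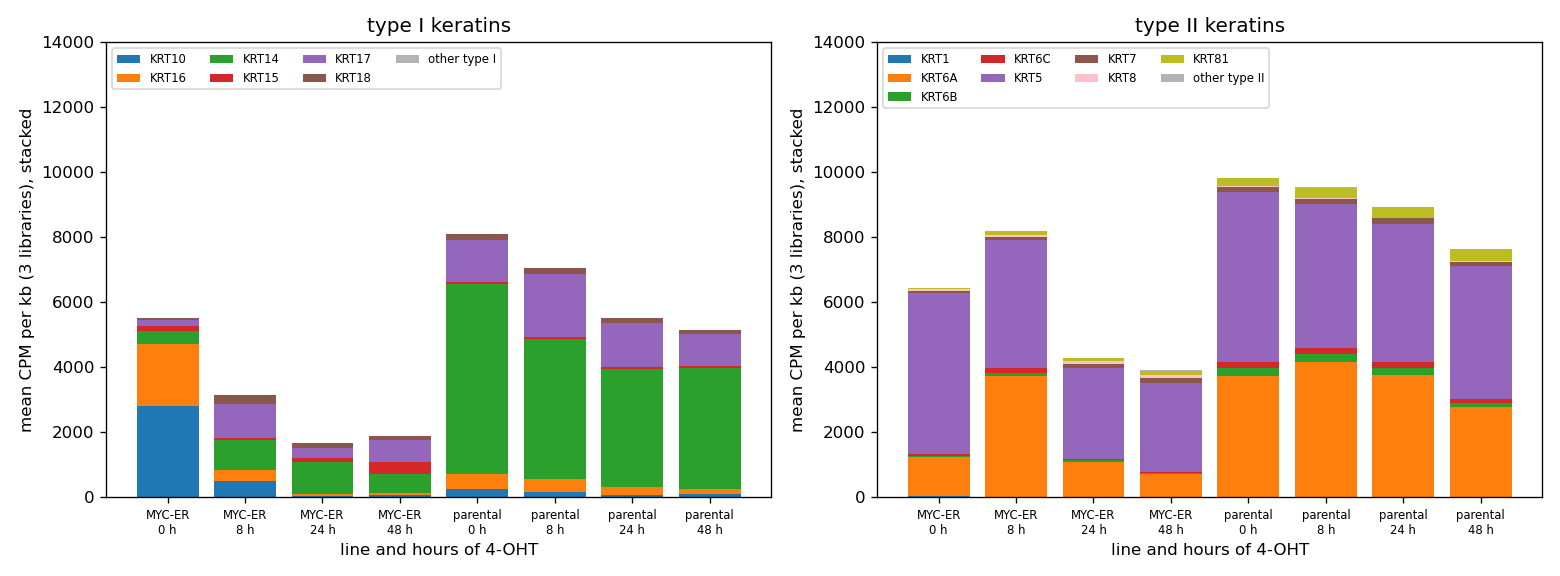
Mean CPM per kilobase of the type I (left) and type II (right) keratins, stacked by gene, for the 8 groups of 3 libraries. KRT10 and KRT16 make up most of the type I bar in MYC-ER cells at 0 h, a smaller part after 8 h (15.7% and 10.9%) and little of it in the other groups, and KRT6A takes its largest share of a MYC-ER type II bar after 8 h.

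Among the other keratins, 9 of 18 tested type II genes were higher and 1 lower in MYC-ER cells after 8 h (list median log2 difference 1.60, beside -0.10 over all genes), and 3 of 8 type I genes were higher and 1 lower (median 0.61). The lists had 55.6% and 50% of their genes called, beside 67.6% of all genes (32.2% higher and 35.4% lower). KRT17 rose from 323 ± 9.08 to 1737 ± 172 CPM (adjusted p = 8.44e-14) and KRT18, of simple epithelia, from 97.0 ± 5.81 to 503 ± 20.5 CPM (adjusted p = 3.95e-14), while KRT15, of basal cells, fell from 815 ± 76.2 to 239 ± 11 CPM (adjusted p = 5.51e-13). KRT15 did not stay low, and averaged 792 ± 42.2 CPM after 24 h and 1895 ± 29.9 CPM after 48 h in MYC-ER cells. Several type II genes of that list (KRT2, KRT73, KRT74, KRT77 and KRT79) jumped between replicates as KRT78 did. At 0 h KRT14 was lower in MYC-ER than in the parental line, at 626 ± 23.6 against 9725 ± 1866 CPM (log2 difference -3.96, SE 0.12, adjusted p = 1.29e-17).

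Of 28 tested genes of suprabasal differentiation and the cornified envelope, 4 were higher and 17 lower at 0 h in MYC-ER than in the parental line (median -0.76, beside 0 over all genes). That is 75% called beside 64.3% of all genes (31.6% higher and 32.7% lower). SPRR1B, an envelope precursor, stood at 8.37 ± 0.196 CPM in MYC-ER cells and 185 ± 45.3 in parental cells (log2 difference -4.46, adjusted p = 7.31e-17), and IVL, involucrin, at 0.472 ± 0.142 against 10.1 ± 3.36 CPM (log2 difference -4.42, adjusted p = 7.23e-11). After 8 h in MYC-ER cells 7 rose and 14 fell (median -0.60), which is 75% called beside 67.6% of all genes. In parental cells after 8 h none rose and 11 fell (median -0.30), 39.3% called beside 31%. The interaction after 8 h was positive for 9 and negative for 6, 53.6% called beside 55.2% of all genes. From 24 to 48 h in MYC-ER cells 21 rose and 2 fell (median 0.82, beside 0.06 over all genes), 82.1% called beside 53.7%, in the interval in which KRT1 and KRT16 rose.

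The inflammatory and growth-factor genes that accompany the stress keratins in wounded skin had 12 of 20 tested higher and 4 lower in MYC-ER cells after 8 h (median 1.14), and 1 higher and 13 lower from 8 to 24 h (median -1.25). That is 80% called beside 67.6% of all genes, and 70% beside 55.5%. From 24 to 48 h in MYC-ER cells 13 rose and 1 fell (median 0.81), 70% called beside 53.7%, whereas KRT6A and KRT6C fell over that interval. In parental cells after 8 h 7 of the 20 rose and 2 fell (median 0.51), 45% called beside 31%. The interaction after 8 h was positive for 8 and negative for 1 (median 0.65), 45% called beside 55.2% of all genes. In MYC-ER cells after 8 h HBEGF, an EGF receptor ligand, rose from 2.31 ± 0.281 to 23.9 ± 1.10 CPM (log2 difference 3.37, SE 0.11, adjusted p = 6.95e-17). EREG, another, rose there from 3.26 ± 0.177 to 29 ± 2.37 CPM (adjusted p = 4.74e-13). At 0 h 15 of the 20 were lower and 2 higher in MYC-ER than in the parental line (median -1.82), 85% called beside 64.3% of all genes. Among the lower was S100A9, a calcium-binding alarmin, at 51.3 ± 7.16 against 535 ± 123 CPM (adjusted p = 2.2e-15). Of 16 desmosome and anchoring genes, 4 rose and 8 fell after 8 h (median -0.78), 75% called beside 67.6% of all genes. The desmosomal cadherin DSG3 fell from 987 ± 42.8 to 191 ± 3.98 CPM (adjusted p = 2.29e-14) and plakophilin PKP2 rose from 30.2 ± 0.0902 to 192 ± 9.41 CPM (adjusted p = 4.96e-16). Of 26 transcription factors of stratified epithelium, 8 rose and 13 fell after 8 h (median -0.20), 80.8% called beside 67.6% of all genes. MAF fell from 24.4 ± 1.26 to 0.678 ± 0.169 CPM (adjusted p = 2.88e-17) and PRDM1 rose from 2.5 ± 0.0358 to 34.0 ± 3.65 CPM (adjusted p = 3.02e-16), both regulators of terminal differentiation in epidermis.

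Among 10778 genes with a group mean of at least 10 CPM, those whose log2 CPM ran most like that of KRT10 over the 24 libraries included MMP15 (Pearson r 0.968), MMP7 (0.954), DAPL1 (0.940) and ESRRA (0.931). For KRT16 they were LINC00511 (0.973), KRT16P3 (0.962), XKR8, IGSF8 and C5AR2, and for KRT6A FRMD8 (0.992), RRS1, RIOX1, SRPRA and SOX15. For KRT80 they were PCLAF (0.894), CCNB2, CDC25C, KIF4A and KIF3C, of which the first 4 are known from proliferating cells. The libraries fall into 8 groups of 3, so these values describe shared group levels and carry no test.

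Of the whole series, MYC averaged 387, 795, 321 and 248 CPM in MYC-ER cells at 0, 8, 24 and 48 h and 463 to 532 CPM in the parental groups, and the counts do not tell the fusion from the endogenous gene. Basal or myoepithelial markers summed to 10985 to 31269 CPM in every library, at most 19735 in MYC-ER and at least 20541 in parental libraries. The 4 melanocyte markers were each below 1 CPM in every group. The endothelial list (5 genes) summed to at most 2.99 CPM in any library. The immune list (5 genes) summed to 7.58 to 23.8 CPM, with 3 or 4 of its genes below 1 CPM in all libraries of a group. The fibroblast list (7 genes) summed to 370 to 377 CPM in MYC-ER cells at 0 h and to 77.3 to 133 CPM in all other groups, and so was highest where KRT10 was highest. In MYC-ER cells at 0 h 5 of the 7 were below 1 CPM, so the sum there is nearly all COL1A1 (215 ± 4.96 CPM) and DCN (157 ± 0.858 CPM). The luminal list (10 genes) was lowest in the same group, at 333 to 357 CPM, against 479 to 867 CPM elsewhere. Its members did not all go that way. KRT7 and KRT18 were lowest there, at 104 ± 3.54 and 97.0 ± 5.81 CPM. KRT8, at 121 ± 4.33 CPM, lay above the parental averages of 45.2 to 55.8 CPM. The part of any of these lists in the keratin levels was not tested.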

How the data were processed

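RNA from 24 libraries was measured with a stranded poly(A) kit and 150-base paired-end reads, 3 libraries pooled per lane, per the labels' protocols. The labels do not say which libraries went together. The deposited values are raw counts, 1 whole number for each gene and library. Per the submitters' processing notes the authors used Trimmomatic 0.39, STAR, StringTie 2.1.3b and GRCh38. Their order, the annotation release, the strand setting and the handling of reads matching several genes are not given in the sources used here. If StringTie derived the counts from coverage, they are estimates, and limits based on 3 counts are approximate. Symbols matched 60340 of 60668 rows.

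The members and gene lists were chosen with earlier results of these data known. Counts were filtered with filterByExpr, normalised with TMM factors and modelled over all 24 libraries with a mean for each group (edgeR 4.0.16 under R 4.3.3). Contrasts used the two-sided quasi-likelihood F test with Benjamini-Hochberg adjustment over 22158 genes and a threshold of 0.05. Levels are CPM on the TMM-scaled totals, divided by the length of the longest coding transcript in GENCODE v29 where genes are compared. Promoters are from RefSeq (GRCh38.p14), which held 2 of the 10 members. The fit was checked on simulated counts.

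Named genes are the members, from each list the 3 with the largest log2 difference past the threshold with at least 10 CPM in the higher group and no overlap of replicates (MYC-ER 8 h against 0 h and the lines at 0 h; some are not printed), and the 5 genes most like KRT10, KRT16, KRT6A and KRT80, of which 1 is not reported here. No 2 replicates agreed within sampling noise (chi-square per degree of freedom 8.63 to 268). The parental 0 h pairs were furthest apart, at 163 to 268, beside at most 64.9 in any other group. The fit shares its estimate of spread over all groups. P-values of contrasts that include parental 0 h may therefore understate the scatter of that group, to an extent that was not measured. Alternatives were other scalings and filters, a GC trend removed by lowess, DESeq2 1.42.0, fewer groups, the replicate block and leaving out each library.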

Additional observations from a re-analysis of the deposited data

Results flagged for a closer look

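The response at 8 h differed between the lines for 5 members by a test of the difference itself, the MYC-ER log2 difference minus the parental one (edgeR quasi-likelihood F test, adjusted over all genes). It was -1.78 for KRT1 and -2.25 for KRT16, which fell in MYC-ER cells, and 1.48 for KRT6A, 1.51 for KRT6B and 1.17 for KRT6C, which rose there. In parental cells at 8 h none of the 5 passed the test as reported, but KRT6A did in 5 alternatives, KRT6B with the GC trend removed (0.19) and KRT16 with upper quartile scaling (-0.27) or without parental 0 h replicate 2 (-0.38). The same test was passed by 55.2% of all genes.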

How the results depend on the processing

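Of 1612 values of called members under the alternatives, 1586 kept their direction and call, 26 lost the call and none reversed. The KRT13 calls had values in 31 or 32 alternatives, in place of 33 for the other members. Fits without a KRT13 value are not counted. The count in parental cells at 8 h, 1 of 9 as reported, was 2 with library size alone or upper quartile scaling, 3 with the GC trend removed or DESeq2, 0 in a fit of only the groups compared, and 0 to 2 when 1 library was left out (0 without parental 8 h replicate 1 or 3). Values that changed sign had not passed the test. KRT6B in parental cells after 8 h was -0.0132 with upper quartile scaling and ran from -0.0624 (without parental 0 h replicate 2) to 0.0970 when 1 library was left out. With the GC trend removed KRT6C there was 0.0322 and KRT16 0.0218, and KRT16 was called at -0.376 without parental 0 h replicate 2. KRT1 between the lines after 24 h was 0.0517 with library size alone, 0.0282 with upper quartile scaling and 0.0222 with the GC trend removed, and ran from -0.202 to 0.121 with 1 library left out (highest without parental 24 h replicate 2). KRT80 with 1 library left out ran from -0.290 to 0.127 in MYC-ER cells after 8 h and from -0.395 to 0.0225 in the interaction after 8 h (highest in both without MYC-ER 8 h replicate 1), and from -0.00831 (without parental 48 h replicate 1) to 0.436 between the lines after 48 h. Library size alone moved the median of all genes by 0.21 from 8 to 24 h and 0.16 from 0 to 48 h in MYC-ER cells. With the GC trend removed the KRT16 differences in parental cells were -0.63 at 24 h and -1.12 at 48 h, in place of -0.95 and -1.45. Over all genes, same-numbered libraries of different groups showed little shared deviation (84 pairs, median r 0.0014, highest 0.094). Differently numbered ones had a median r of -0.0015 and a highest of 0.085 (168 pairs). Still, 12 of 24 libraries were closest to their own number, and for most members replicate 2 was often the lowest. Whether either exceeds chance was not tested. With the replicate block the counts of members called were 6, 5, 6 and 5 in the MYC-ER contrasts in the order given, 1 in parental cells at 8 h, 6, 5, 5 and 6 between the lines and 5 for the interaction. KRT78 between the lines after 24 h lost its call with the block (2.21, adjusted p = 0.0509). The causes of these changes were not tested. KRT13 had 0 counts in 10 libraries, each of which allows up to 3 counts.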
